A study of Drosophila melanogaster with 32 samples.

Results

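Rab proteins are small GTPases that switch between a GTP-bound and a GDP-bound state and mark membrane compartments of the cell, where they recruit the factors that move, tether and fuse vesicles. The family covers the route from the endoplasmic reticulum through the Golgi to the plasma membrane, the endosomes and the lysosome, and a core of it is used by nearly every cell type. The members here were all genes of the Drosophila melanogaster annotation whose symbol is Rab with a number, or with X and a number, followed or not by further letters. Names with a hyphen and those of GAP or GEF regulators were left out. This gave 33 protein-coding genes out of 17684 annotated genes on the chromosome arms.

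Chromatin immunoprecipitation with sequencing (ChIP-seq) mapped 4 chromatin proteins in Kc167 cells, a female line derived from embryos. M1BP (Motif 1 binding protein) has zinc fingers that recognise a core promoter element, and CP190, Su(Hw) and Mod(mdg4) are proteins of chromatin insulators, of which Su(Hw) binds DNA through its zinc fingers. One experiment profiled all 4 in mock-treated cells (mock) and in cells that received 20 µg of dsRNA, the trigger of RNA interference, targeting M1BP (M1BPKD). The other profiled M1BP and CP190 in its own mock cells (mock2) and in cells that received 12 µg of dsRNA targeting Cp190 (Cp190KD), with 5 days of incubation in both cases. The split into 2 experiments, with mock2 as the control of Cp190KD, is inferred from the sample names and antibodies. Each of the 12 combinations had 2 libraries, and what a mock transfection contained is not stated in the labels. Each list held 1699 to 8443 peaks, and the M1BP lists after M1BP knockdown and the CP190 lists after CP190 knockdown were the shortest. No source used here gives the read depth or how much of either target protein was left.

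A Rab gene is called bound in a library here when a peak summit lay within its span or up to 250 bp beyond either end. The gene table holds no strand, so the 2 ends of a gene are named by their lower and higher coordinate, and a summit in a short gap between genes may belong to the neighbour. Fold enrichment is the authors' ratio of ChIP to control signal at a peak. It is not scaled between libraries, so folds from different libraries are given side by side and not tested, and "no peak" means none past the authors' threshold. Of the 33 Rab genes 24 had a peak in at least 1 of the 24 lists and 9 had none, against 9033 with and 8651 without among all 17684 genes.

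**Figure D1:**
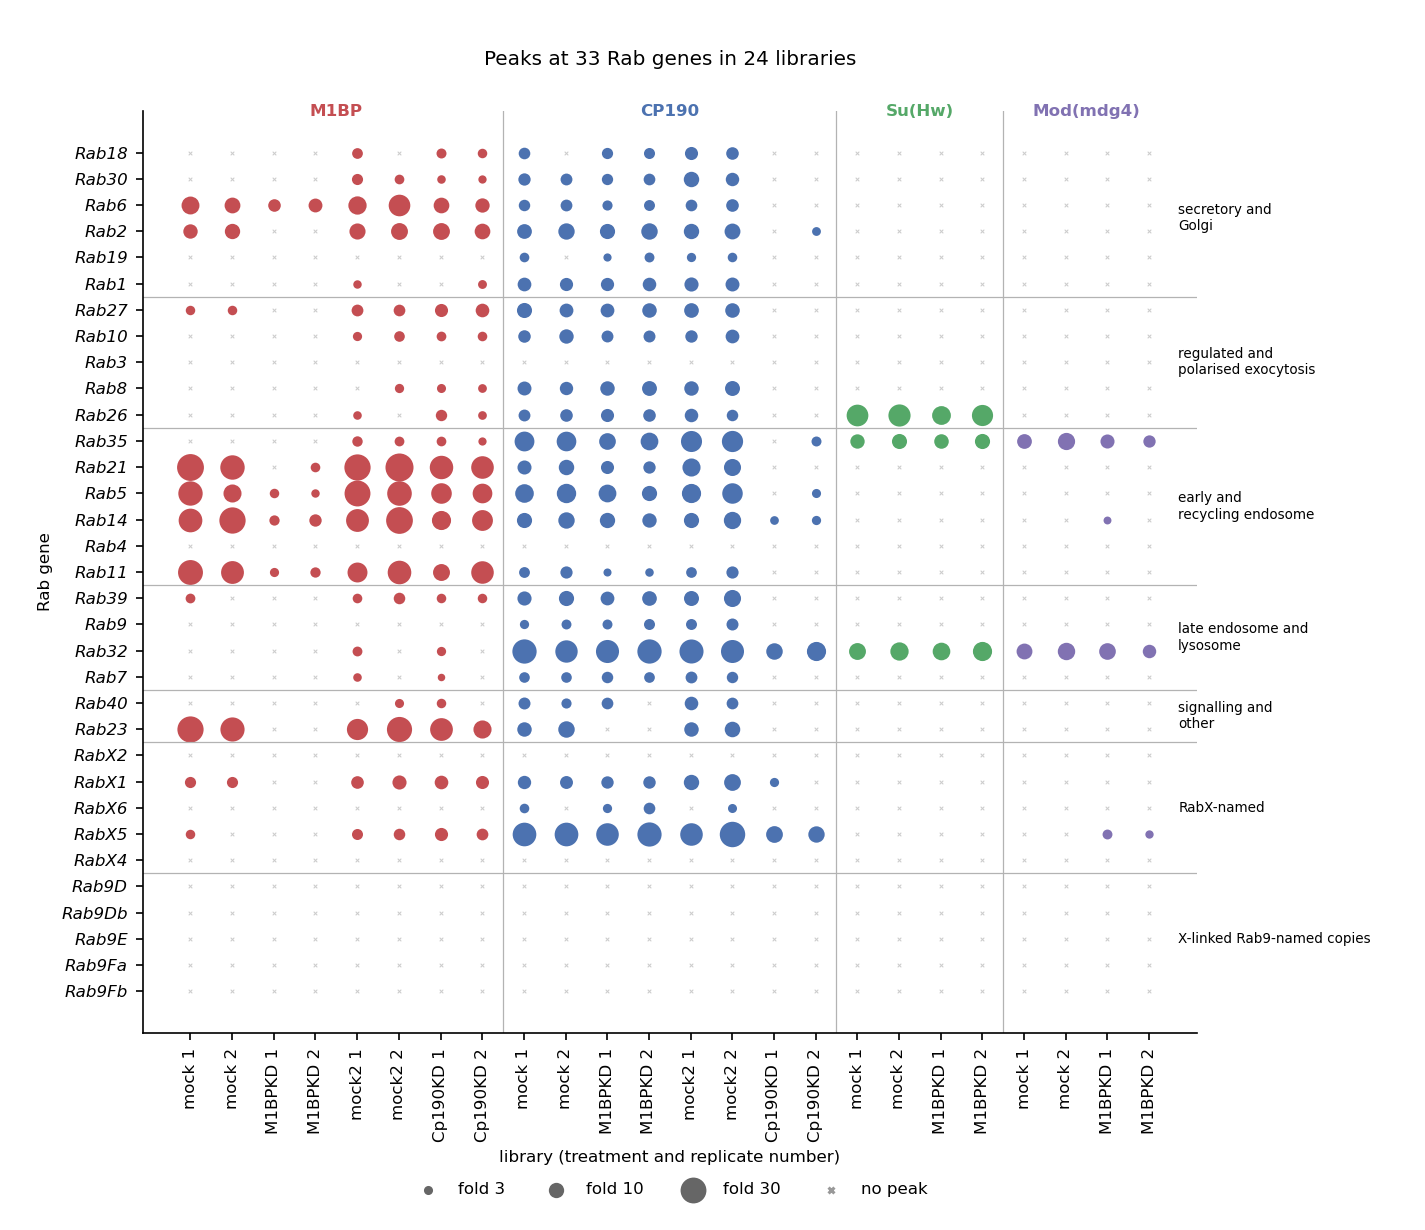
Each row is 1 of the 33 Rab genes and each column is 1 of the 24 libraries, by antibody and treatment. Genes are grouped by the cell route they are best known for, as signalling and other, or by name (RabX-named and X-linked Rab9-named). The area of a dot grows with the highest fold enrichment at the gene and a cross marks no summit within 250 bp of the gene. CP190 dots fill most rows outside the CP190 knockdown, strong M1BP dots sit in a few rows, and the rows of the X-linked Rab9-named genes are empty.

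CP190 was the protein found most often at Rab genes in mock cells. Both mock libraries had a CP190 peak at 21 of the 33 genes (63.6%), against 34.2% of all annotated genes and 40.7% of protein-coding ones. With summits counted only within 250 bp of a gene end, the shares were 57.6% of Rab genes and 27.4% of all genes. M1BP was at 9 Rab genes in both mock libraries (27.3%), against 17.7% of all genes and 21.5% of protein-coding genes, and the gene-end shares were 24.2% and 15.3%. Su(Hw) was at 3 (9.09%, against 9.80% of all genes) and Mod(mdg4) at 2 (6.06%, against 7.49%), shares close to the background. The Rab genes had a median span of 2445 bp and all genes one of 1710 bp, and how far span length enters these shares was not tested.

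All 9 Rab genes with M1BP in both mock libraries also had CP190 in both (80.1% of all genes with M1BP did). The 4 with the highest M1BP folds are described first. Rab21, a GTPase of early endosomes and integrin traffic, had M1BP folds of 32.4 and 26.6 in the mock libraries. Rab23, which takes part in planar cell polarity in the fly, had 30.8 and 26.1. Rab14, a GTPase of endosomes and phagosomes, had 25.1 and 31.0, and Rab11, the marker of recycling endosomes, 27.8 and 23.2. These values stood high within their own lists, above 84.43% to 97.52% of the peaks of the list they came from.

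Rab5, which marks early endosomes, had M1BP folds of 26.5 and 14.2 in mock cells, and Rab6, a Golgi GTPase, 14.0 and 10.7. Rab2, which acts at the Golgi and in fusion with lysosomes, had 8.73 and 10.0. RabX1 had 4.98 and 4.93, and Rab27, a GTPase of regulated secretion, 3.33 and 3.37. The folds of Rab27 and RabX1 stood above 8.69% to 26.8% of their lists. RabX5 had an M1BP peak in mock replicate 1 alone (3.37). Rab39 had one inside the gene in replicate 1 (3.59) and one in replicate 2 (3.93) with its summit 290 bp before the lower-coordinate end, outside the limit.

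The CP190 folds at these 9 genes ordered the genes differently. Rab5 led with 15.2 and 16.5, and Rab11 and Rab6 were lowest with 4.62 and 6.08 and with 5.25 and 5.62. Rab23 had 8.83 and 11.7, above 55.98% and 65.82% of the peaks of the 2 CP190 lists. M1BP and CP190 ranked differently at Rab11, where M1BP stood above 89.93% and 88.31% of its lists and CP190 above 24.01% and 37.33%.

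At 7 of the 9 Rab genes M1BP lay where the ends of 2 genes are close together. By the median of the mock M1BP summits, all 9 sites lay within 250 bp of an end of their Rab gene, and 7 of them (77.8%) also within 250 bp of an end of another gene. Among all pairs of a gene and an M1BP site within 250 bp of its end the share was 58.5%. It was 32.6% of all M1BP sites bound in both mock libraries, a figure that includes sites far from any gene end, which the choice of Rab sites leaves out. The partners were mei-38 for Rab27, Coa7 for Rab21, Axud1 for Rab5, l(2)34Fd for Rab14, Mob4 for Rab2, mi for RabX1 and ppan for Rab11. The exceptions were Rab6, with the nearest end of another gene 293.5 bp away, and Rab23, with it 390.5 bp away. At Rab5 the summit of mock replicate 1 lay 5866 bp from the lower-coordinate end of a 6132 bp span, too far inside for the gene-end count, and that of replicate 2 at 6179 bp. The annotation does not say here which of the paired ends are starts of transcription.

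The distance between the summits of the 2 proteins varied among these sites. The median M1BP summit lay 6 bp from the median CP190 summit at Rab14 in mock cells, 8 bp at Rab11 and 11 bp at Rab2. Rab23 had the widest offset of the 9, with M1BP on the side of lower coordinates (-176 bp), followed by Rab21 (-119 bp). At Rab23 the M1BP summits of all 6 libraries that had one fell 5398 to 5429 bp from the lower-coordinate end of the gene, which spans 5381 bp, and the CP190 summits of the 4 mock and mock2 libraries 5582 to 5626 bp from it.

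**Figure D2:**
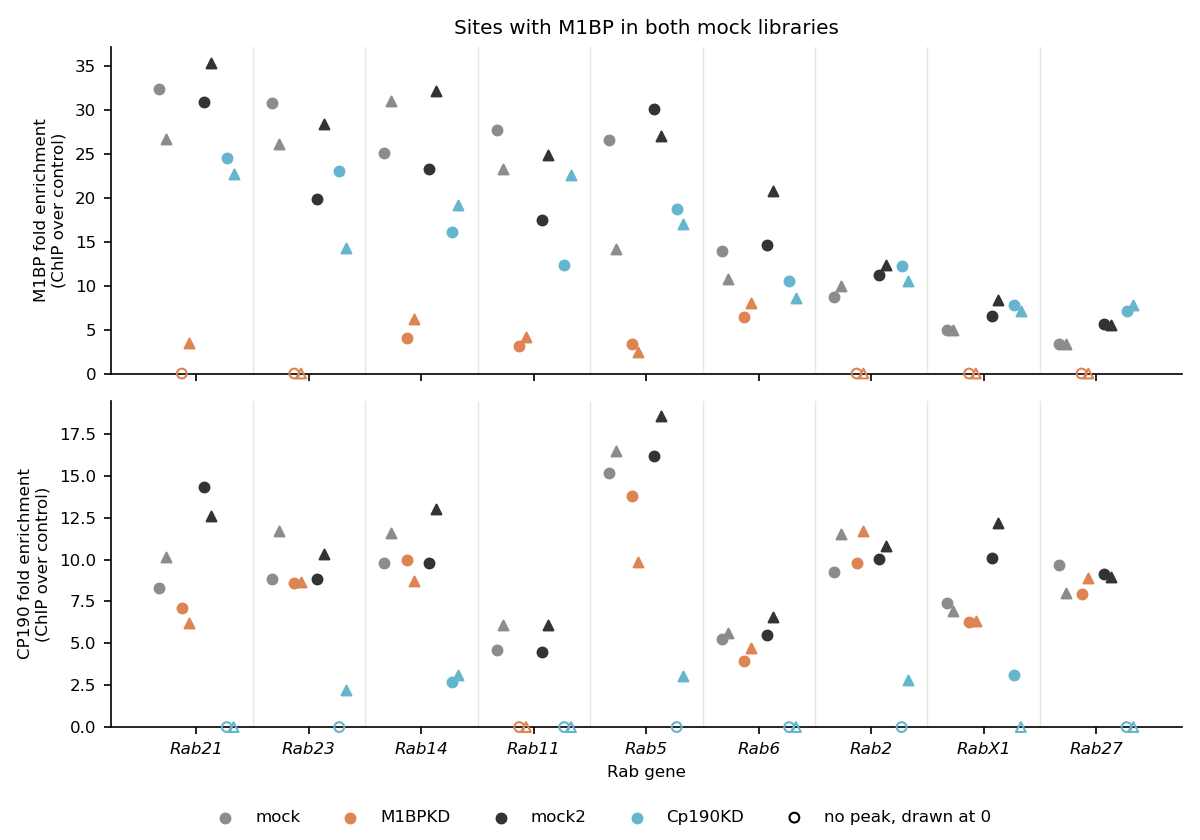
The x axis names the 9 Rab genes with M1BP in both mock libraries, ordered by mock fold, and the y axes give the fold enrichment of M1BP (top) and CP190 (bottom) at that site. Circles are replicate 1 and triangles replicate 2, coloured by treatment, and open marks drawn at 0 are libraries with no peak. After M1BP knockdown Rab23 lacks M1BP and has CP190 folds of 8.61 and 8.68, while Rab11 has M1BP and lacks CP190.

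M1BP knockdown was followed by fewer Rab genes with M1BP. The mock libraries had M1BP at 11 and 9 Rab genes and the knockdown libraries at 4 and 5, so the groups did not overlap (10.0 ± 1.41 against 4.5 ± 0.707, mean ± SD, n = 2 libraries each). The difference of -5.5 genes per library became -2.5 with lists of equal length and -3.5 with a reach of 100 bp, still without overlap. Nor did the shares of all genes overlap, with 19.8% and 19.4% before against 12.6% and 12.1% after the knockdown. The exact permutation test over libraries, two-sided, gave p = 0.33, the smallest p that 2 against 2 libraries allow. A gene is called lost when both control libraries and neither knockdown library had a peak, and gained in the opposite case. M1BP was lost at 4 of the 9 Rab genes (44.4%, against 32.0% of all genes bound in both mock libraries) and gained at 0 of the 22 bound in neither mock library (0.353% of all such genes). Counted as sites in place of genes the losses were also 4 of 9, against 36.3% of all M1BP sites. All 4 lost genes also lacked any knockdown peak overlapping their mock peaks (44.4%, against 30.8% of all genes).

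The lost genes were Rab23, Rab2, RabX1 and Rab27, with mock folds from the lowest of the 9 genes, at Rab27, to the second highest mean, at Rab23. Rab5, Rab6, Rab14 and Rab11 kept a peak in both knockdown libraries. Rab6 had knockdown folds of 6.49 and 8.06 and Rab14 of 4.07 and 6.25. Rab11 had 3.09 and 4.10, and Rab5 3.36 and 2.48. Rab21, with the highest mean mock fold of the 9, had no peak in knockdown replicate 1 and a fold of 3.47 in replicate 2. Lists of equal length left 2 lost genes of 7 bound, and a reach of 100 bp beyond the gene 2 of 6, Rab23 and Rab2 in both cases. Rab27 and RabX1 then no longer counted as bound in both mock libraries, so they could not count as lost. A reach of 500 bp added Rab39 to the bound genes and to the lost ones, 5 of 10. Under a stricter limit, -log10 q of at least 10, the 4 lost genes were Rab21, Rab2, RabX1 and Rab23.

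CP190 stayed at most Rab genes after M1BP knockdown. The mock libraries had CP190 at 24 and 21 Rab genes and the knockdown libraries at 23 and 22, an overlap of the groups with equal means of 22.5 (SD 2.12 and 0.707, n = 2 libraries each, exact permutation p = 1, two-sided). Of the 21 genes bound in both mock libraries 19 were retained in both knockdown libraries. Rab23 counted as lost by the 250 bp limit, 4.76% of the 21 against 4.64% of all genes, although a peak overlapping its mock peaks was present in both knockdown libraries. When a loss also required that no knockdown peak overlap the mock peaks, 0 of the 21 were lost, against 3.57% of all genes. Rab40, whose protein carries a SOCS box and acts with ubiquitin ligases, kept a peak in knockdown replicate 1 alone (5.52, against 5.81 and 3.95 in mock). Without that library Rab40 would count as lost. None of the 9 Rab genes bound in neither mock library was gained (2.10% of all such genes). Without mock replicate 1, 3 genes would count as gained, Rab18, Rab19 and RabX6, each of which had CP190 in that mock library and not in mock replicate 2.

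At Rab23 M1BP lost its peak after M1BP knockdown and CP190 kept its own. CP190 had folds of 8.83 and 11.7 in mock cells, of 8.86 and 10.3 in the second mock set and of 8.61 and 8.68 after M1BP knockdown. The summits of the knockdown peaks lay 5756 and 5759 bp from the lower-coordinate end of the gene, farther out than the 5582 to 5626 bp of the 4 mock and mock2 libraries. This put them beyond the 250 bp limit, and with a limit of 500 bp Rab23 was not lost. The peaks of both proteins at the site spanned chr3R 5684618 to 5686237 in the deposited lists, whose sequence names match Release 6 though no source used here names the build. The gene plx begins or ends near the CP190 summits, 219 bp from the median summit of the site.

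Rab11 counted as retained for CP190 as a gene, but its mock sites did not. In mock cells CP190 had a site 861 bp inside the lower-coordinate end (3.63 and 4.21) and one at the higher-coordinate end, where M1BP also lay (4.62 and 6.08). Both were again present in the second mock set and neither had a peak after M1BP knockdown. The knockdown libraries had a weak CP190 peak at the lower-coordinate end (2.2 and 2.55), a place with a CP190 peak in 1 library of the second mock set (2.68). At a -log10 q of at least 10 Rab11 counted as lost beside Rab23, again by the 250 bp limit at Rab23.

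Counted as whole sites, with no limit on how far a site extends from the gene, CP190 was lost at 3 of 26 (11.5%, against 5.23% of all CP190 sites bound in both mock libraries). The 3 are both sites of Rab11 and 1 at Rab10, a GTPase of polarised secretion. At Rab10 the CP190 peaks of mock and knockdown cells overlapped and the summit alone moved, from 573 bp inside the gene in both mock libraries to 29 and 5 bp before its lower-coordinate end. With overlapping peaks joined into 1 site the sites lost were 2, and with the gene-end rule 1.

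At all 4 Rab sites that lost M1BP, CP190 kept a peak in both knockdown libraries. Loss of CP190 after M1BP knockdown was rare in the whole genome too, at 5.23% of its mock sites. How often CP190 stayed over all sites that lost M1BP was not counted, so its retention is not shown to be particular to Rab genes. Beside Rab23, at Rab2 CP190 had folds of 9.23 and 11.5 in mock and of 9.80 and 11.7 in knockdown libraries. At Rab27 it had 9.70 and 7.99, then 7.94 and 8.90, and at RabX1 7.39 and 6.91, then 6.26 and 6.34. The mock and knockdown folds overlapped at Rab2 and Rab27, while at RabX1 and Rab23 both knockdown folds were the lower ones.

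**Figure D3:**
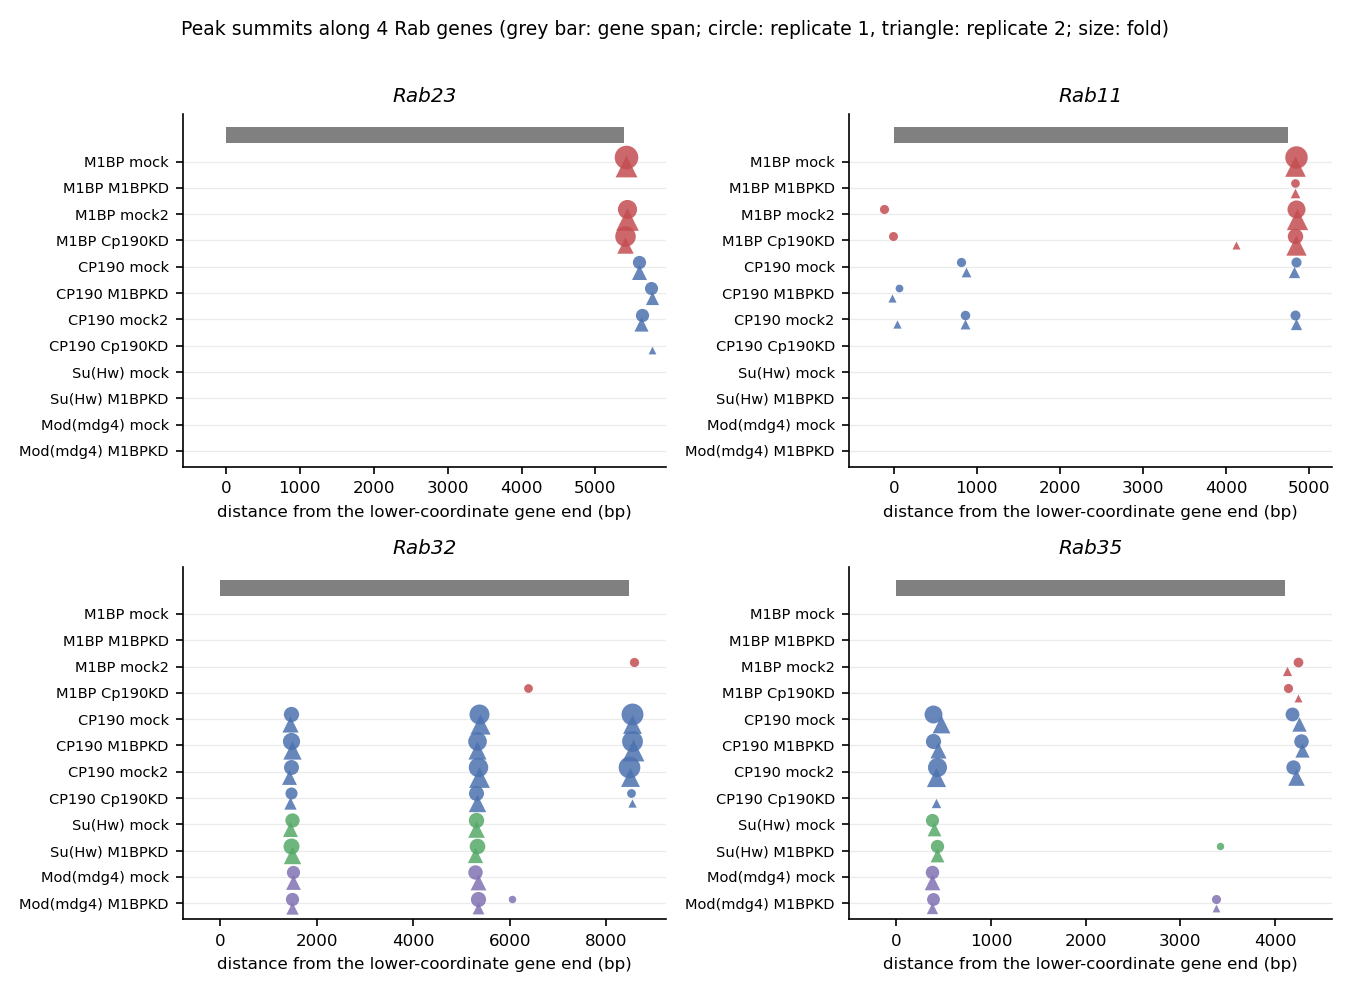
Summits of all libraries along Rab23, Rab11, Rab32 and Rab35 are drawn by distance in bp from the lower-coordinate end of the gene, with the gene span as a grey bar. Rows are antibody and treatment, circles are replicate 1, triangles replicate 2, and size grows with fold. After M1BP knockdown CP190 is missing at the higher-coordinate end of Rab11 and lies farther from the gene at Rab23, and in Rab32 and Rab35 the CP190, Su(Hw) and Mod(mdg4) summits share positions inside the gene.

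The insulator proteins Su(Hw) and Mod(mdg4) were seen at few Rab genes in mock cells, and there inside the genes. Rab32, which serves lysosome-related organelles such as the pigment granules of the fly eye, had 2 internal sites with all 3 insulator proteins. At 1479 bp from its lower-coordinate end the mock folds were 10.5 and 11.7 for Su(Hw), 8.82 and 11.4 for Mod(mdg4) and 12.2 and 13.8 for CP190. At 5326 bp, a place 205 bp from an end of the gene lncRNA:CR44284, they were 12.3 and 14.6, 10.8 and 13.2, and 21.7 and 22.3. Rab35, a GTPase of endosomal recycling, had 1 such site at 397 bp (8.69 and 9.66 for Su(Hw), 9.24 and 12.9 for Mod(mdg4), 17.3 and 17.0 for CP190).

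Rab26, which acts on secretory and synaptic vesicles, differed from these. It had its strongest Su(Hw) site 8042 bp inside the gene (20.9 and 21.8), above 91.48% and 86.58% of the Su(Hw) lists, with CP190 folds of 3.83 and 4.15 and no Mod(mdg4) peak in any library. A weak Su(Hw) site at 2663 bp (3.03 and 4.36) had no CP190. With summits counted at gene ends alone, no Rab gene had Su(Hw) or Mod(mdg4) in both mock libraries.

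These sites kept their peaks after M1BP knockdown. Su(Hw) was lost at 0 of 3 Rab genes (0.866% of all genes) and gained at 0 of 30 (1.24%), and the libraries of both groups each had 3 genes. Among all genes Su(Hw) was at 10.3% and 10.3% in mock and at 12.3% and 11.7% in knockdown libraries, without overlap. The Su(Hw) lists were also longer after the knockdown, with 5577 and 5324 peaks against 4579 and 4544. In knockdown cells Su(Hw) had folds of 13.5 and 16.1 and of 12.8 and 12.2 at the 2 Rab32 sites, of 8.95 and 9.77 at Rab35 and of 15.5 and 19.8 at Rab26. Mod(mdg4) was lost at 0 of 2 (2.34%). It was found at 2 and 2 Rab genes in mock and at 4 and 3 in knockdown libraries, groups that did not overlap (2.0 ± 0 against 3.5 ± 0.707, mean ± SD, n = 2 libraries each, exact permutation p = 0.33, two-sided). With a reach of 100 bp or a -log10 q of at least 10 the difference went from 1.5 to 0.5 genes per library and the groups overlapped (exact permutation p = 1.0 in both cases, two-sided). Of all genes, 7.87% and 9.21% had Mod(mdg4) in mock against 13.8% and 10.1% after the knockdown, also without overlap.

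Mod(mdg4) was gained at 1 of the 31 Rab genes bound in neither mock library (3.23%, against 1.19% of all such genes). The gene was RabX5, with folds of 3.70 and 2.39 and a site next to the ribosomal protein gene RpL23A. The peak did not reach a -log10 q of 10 in both libraries, and with a reach of 100 bp it falls outside the gene. Rab14 had a Mod(mdg4) peak in knockdown replicate 1 alone (2.08), and without replicate 2 it would count as a second gain. Rab35 had a further Mod(mdg4) site at 3374 bp in both knockdown libraries (3.50 and 2.26) and neither mock library. The Mod(mdg4) knockdown lists were longer than the mock lists, with 5575 and 4862 peaks against 2999 and 3664. With lists of equal length RabX5 was still gained and the difference in the mean number of genes went from 1.5 to 1.

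The second mock set had more Rab genes with M1BP than the first, where the shares were 27.3% of Rab genes and 17.7% of all genes. The mock2 M1BP lists were also longer, with 3844 and 3426 peaks against 2980 and 2781 in mock. Both mock2 libraries had M1BP at 14 Rab genes (42.4%, against 22.9% of all genes). These were the 9 of the first set and Rab39, Rab35, Rab10, Rab30 and RabX5. The added genes had low folds, from 3.13 at Rab10 to 5.34 at Rab39, while Rab21 had 30.9 and 35.4 and Rab14 23.2 and 32.2. CP190 was at 23 Rab genes in both libraries of this set (69.7%, against 37.2% of all genes). That the 2 sets come from separate experiments is inferred from their names, and they were not tested against each other.

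After CP190 knockdown CP190 remained at few Rab genes. The second mock set had CP190 at 23 and 24 Rab genes and the knockdown libraries at 4 and 6, so the groups did not overlap (23.5 ± 0.707 against 5.0 ± 1.41, mean ± SD, n = 2 libraries each, exact permutation p = 0.33, two-sided, the smallest p possible). Of all genes, 39.5% and 39.2% had CP190 in mock2 against 11.0% and 11.6% after the knockdown, again without overlap. CP190 was lost at 16 of 23 Rab genes (69.6%), close to the 66.4% of all genes, and at 18 of 28 sites (64.3%, against 71.2% of all sites). With no overlapping knockdown peak allowed, 15 were lost (65.2%, against 65.5%), without Rab23, which had a CP190 peak of fold 2.23 beyond the limit in knockdown replicate 2. It was gained at 0 of 9 genes (0.203% of all such genes). When every list was shortened to the length of the shortest, 3 Rab genes were bound in both mock2 libraries, 0 were lost, and the difference in the mean number of genes turned from -18.5 to 1.

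CP190 was lost at 5 of 6 secretory and Golgi genes, with Rab1 of the route from the endoplasmic reticulum to the Golgi (8.42 and 8.16 in mock2), Rab18 of lipid droplets (7.11 and 6.50), Rab30 of the Golgi (10.2 and 7.52), Rab19 (3.16 and 3.42) and Rab6 (5.47 and 6.56) among them. It was lost at all 4 exocytosis genes that had it, among them Rab8 of post-Golgi transport (8.84 and 9.51). Of the 4 genes of the late endosome and lysosome it was lost at 3, among them Rab7, the late endosome marker (5.64 and 5.22), and Rab9 (4.74 and 5.84). Of the 5 early and recycling endosome genes with CP190 it was lost at 2, Rab21 and Rab11. It counted as lost at both signalling and other genes, Rab23 and Rab40, and at 0 of the 2 RabX-named ones with CP190, RabX1 and RabX5. Over all genes the share was 66.4%, the groups hold few genes each, and differences between them were not tested.

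CP190 was retained in both knockdown libraries at Rab32, RabX5 and Rab14. RabX5 had folds of 22.7 and 29.1 in mock2 and of 12.1 and 11.6 after knockdown, and Rab14 of 9.81 and 13.0, then 2.71 and 3.13. Within Rab32 the 3 sites differed in their knockdown folds. The 2 internal sites with Su(Hw) had 7.14 and 7.49 (11.7 and 11.4 in mock2) and 11.7 and 16.1 (20.6 and 23.6 in mock2). The third, at the higher-coordinate end and without Su(Hw), had 3.20 and 2.71 after knockdown, against 25.8 and 19.3 in mock2. The end site was thus the strongest of the 3 by its mock2 replicate 1 fold and the weakest in both knockdown libraries.

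Sites with Su(Hw) in other Rab genes differed from those of Rab32. The Rab35 site with Su(Hw) and Mod(mdg4) had CP190 folds of 19.6 and 19.9 in mock2 and a peak in knockdown replicate 2 alone (3.78). The Rab26 site with Su(Hw) at 8042 bp lost its CP190 peak (4.56 and 3.97 in mock2). RabX5, where CP190 was retained, had no Su(Hw) peak in any library. Rab5 (3.02), Rab2 (2.80) and RabX1 (3.11) each kept a CP190 peak in 1 knockdown library.

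**Figure D4:**
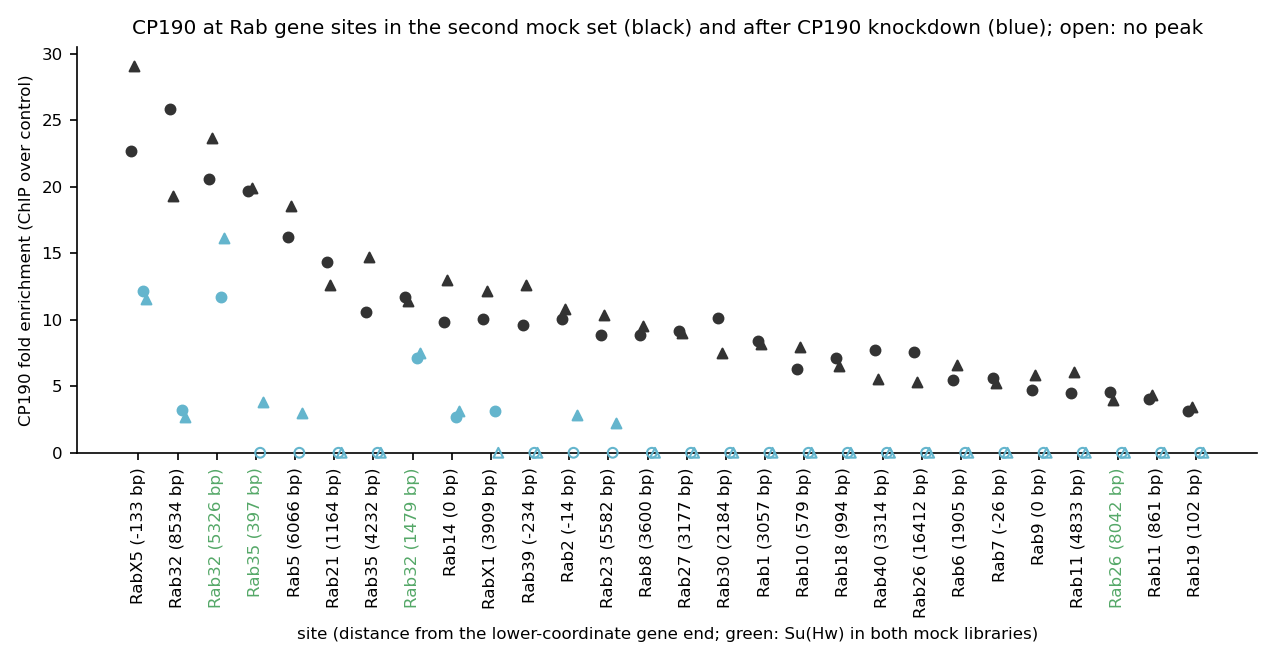
The x axis lists the 28 CP190 sites of Rab genes bound in both mock2 libraries, by distance in bp from the lower-coordinate gene end, and the y axis gives the CP190 fold enrichment. Black marks are mock2 and blue marks Cp190KD, circles replicate 1 and triangles replicate 2, and open marks at 0 are libraries with no peak. Names in green have Su(Hw) in both mock libraries. Filled blue marks are at RabX5, Rab32, Rab35, Rab5, Rab14, RabX1, Rab2 and Rab23.

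M1BP kept its peaks at the Rab genes after CP190 knockdown. M1BP was lost at 0 of the 14 Rab genes bound in both mock2 libraries (3.91% of all genes) and gained at 0 of 12 (1.28%). The mock2 libraries had M1BP at 19 and 16 Rab genes and the knockdown libraries at 20 and 18, an overlap of the groups (17.5 ± 2.12 against 19.0 ± 1.41, mean ± SD, n = 2 libraries each, exact permutation p = 0.667, two-sided). At Rab23 M1BP had 23.0 and 14.3 against 19.9 and 28.4 in mock2. At Rab21 it had 24.5 and 22.7 against 30.9 and 35.4, and at Rab11 12.4 and 22.6 against 17.5 and 24.9. At Rab5 it had 18.7 and 17.1 against 30.1 and 27.1, at Rab14 16.1 and 19.2 against 23.2 and 32.2, and at Rab6 10.6 and 8.65 against 14.6 and 20.7. The other way round, Rab27 had 7.11 and 7.78 against 5.62 and 5.49, and RabX5 7.17 and 5.54 against 4.80 and 5.33. Of the 14 genes, both knockdown folds were lower than both mock2 folds at 7 (Rab21, Rab5, Rab14, Rab6, Rab39, Rab35 and Rab30), higher at 2 and overlapping at 5 (Rab23, Rab11, Rab2, RabX1 and Rab10). The median fold of the whole M1BP list was lower after the knockdown, at 7.81 and 8.13 against 8.99 and 12.6 in mock2. Folds are not scaled between lists and these differences were not tested. How many of all genes with M1BP had lower, higher or overlapping folds was not counted. Without mock2 replicate 1, 2 genes would count as gained, Rab18 and Rab26, and without mock2 replicate 2 it would be Rab8.

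**Figure D5:**
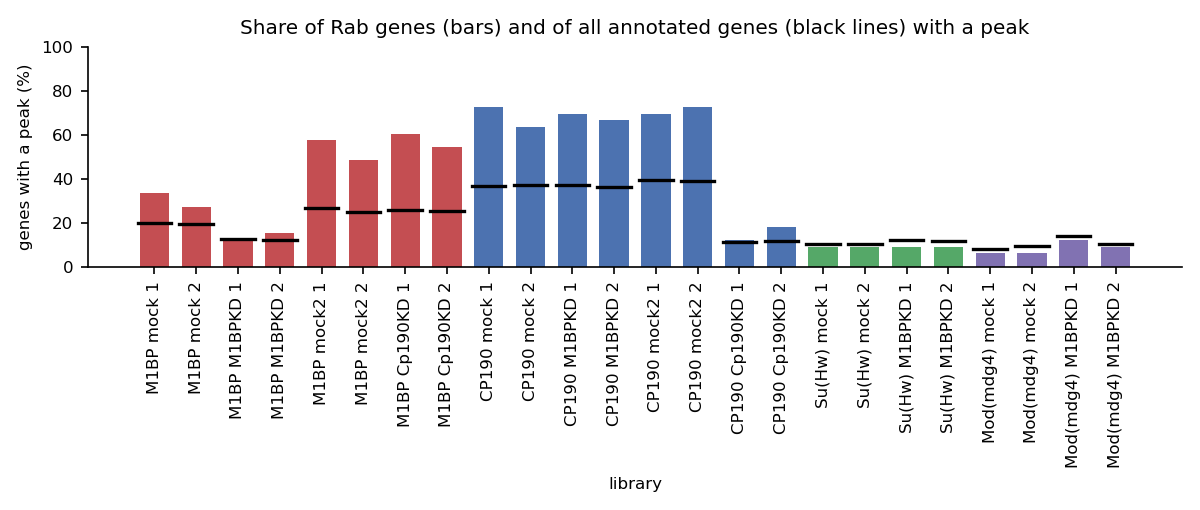
Bars give the percentage of the 33 Rab genes with a peak in each library and black lines that of all 17684 annotated genes. In the mock and mock2 libraries of M1BP and CP190 the bars stand above the lines. After M1BP knockdown M1BP was at 12.1% and 15.2% of Rab genes and at 12.6% and 12.1% of all genes, and after CP190 knockdown CP190 was at 12.1% and 18.2% of Rab genes and at 11.0% and 11.6% of all genes.

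The 9 Rab genes without a peak were mostly short. The 5 genes named Rab9D, Rab9Db, Rab9E, Rab9Fa and Rab9Fb, all on the X chromosome with spans of 871 to 897 bp, had no peak in any of the 24 lists, nor did RabX2 on the same chromosome. How the authors treated reads that match several similar copies is not stated in the labels, so the empty entries of these genes are uncertain. Rab3, a GTPase of synaptic vesicles, Rab4 of fast endosomal recycling and RabX4 were also without a peak. The 9 genes had a median span of 889 bp and the other 24 Rab genes one of 3179 bp, and over all genes the medians were 1023 bp without a peak and 2825 bp with one.

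Genes that work with Rab proteins were looked at in the same way. Of a list of 49 names of Rab regulators, effectors and partners 46 were found in the annotation. M1BP was at 13 of them in both mock libraries and lost at 5, and CP190 was at 30 and lost at 2. Over all genes M1BP was at 17.7% and lost at 32.0% of those, and CP190 at 34.2% and lost at 4.64%. After CP190 knockdown CP190 was lost at 22 of 32 (66.4% over all genes) and M1BP at 0 of 14 (3.91%). The highest M1BP folds were at nuf, an effector of Rab11 (29.96 and 23.0 in mock, 15.5 and 21.7 after M1BP knockdown), and at Rip11, another Rab11 effector (26.4 and 21.9, then no peak). BicD, a dynein adaptor that binds Rab6, had 25.7 and 21.9, then 5.24 and 6.33, and Tbc1d8-9 had 28.4 and 17.9, then 6.05 and 7.53. As a gene, Rip11 still had CP190 after M1BP knockdown (25.4 and 29.5 in mock, 21.1 and 26.1 after the knockdown). These are the highest folds at the gene, and whether they lie at the site that lost M1BP was not tested. Rip11 also had Su(Hw) and Mod(mdg4) peaks in both M1BP knockdown libraries. Its CP190 folds after CP190 knockdown were 15.8 and 16.8.

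Of 36 names of other small GTPases 30 were found. M1BP was at 14 in both mock libraries and lost at 4, and CP190 was at 21 and lost at 0, beside the same shares of all genes. After CP190 knockdown CP190 was lost at 8 of 20 of them, a lower share than the 66.4% over all genes, and M1BP at 0 of 17 (3.91%). That difference was not tested. Rac1, a regulator of the actin cytoskeleton, had M1BP folds of 32.5 and 27.9 in mock and of 13.0 and 18.1 after M1BP knockdown. Rheb, an activator of TOR, had 35.7 and 20.9, then 6.42 and 7.13. Ras64B had 25.2 and 27.9, then 12.9 and 24.3, and Arf6 18.5 and 20.1, then 3.60 and 4.56. The 4 named here all kept an M1BP peak in both knockdown libraries. Rab23, with mock folds of 30.8 and 26.1, did not, and neither did Rip11, with 26.4 and 21.9. How often equally strong M1BP sites were lost over all genes was not counted.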

How the data were processed

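Peak lists of 24 ChIP-seq libraries were used. Of the 32 samples, 8 are inputs, not analysed here. The submitters' processing notes name MACS2 2.2.5, Picard 2.20.2, SAMtools 1.9 and Bowtie2 2.3.5, while options and genome build are not stated. The sequence names, and chrM coordinates of up to 19524, match Release 6 (dm6). The authors called peaks per library, as the deposited peak names show. The deposited values are a fold enrichment (ratio of ChIP to control), a -log10 p and a -log10 q (lowest 1.30, so a threshold of q = 0.05), a score of 10 times the -log10 q and the summit offset.

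Gene symbols and neighbours came from the RefSeq table of Release 6, without strand or sequence, so no sequence or motif is shown. Summits up to 200 bp apart were joined into sites, kept whole where 1 summit lay within reach of a Rab gene, a rule set after seeing the data. Classes were counted with Python 3.11.15 and pandas 2.3.3. The classes of genes were checked on simulated lists with known answers, at genes that stand apart from other genes. Site joining and losses by peak overlap were not part of that check. Members, lists and tests were chosen with earlier results of these data known. Every Rab gene is named. Of the other lists, the 4 genes with the highest mean mock M1BP fold are given.

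Counts were compared by exact permutation of libraries. Nothing in the labels tells if replicates came from separate cultures, so the spread between these libraries may be technical. The p-values rank the observed split of the libraries among all possible splits and do not measure that spread. Alternatives were a reach of 100 or 500 bp, losses by peak overlap, gene ends, -log10 q of 10 or more, equal list lengths, each library left out and the replicate block.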

Additional observations from a re-analysis of the deposited data

How the results depend on the processing

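Of 249 alternative values 1 turned and 34 moved, that is, a count by over 1.5 times or a difference to or from 0. Of the other 214, 205 stayed within 1.5 times and 9 differences kept their direction but moved further. These were the M1BP difference of -5.5 after M1BP knockdown (-3.5 with a reach of 100 bp, -2.5 with equal lengths), the Mod(mdg4) difference of 1.5 (0.5 with a reach of 100 bp or a -log10 q of 10 or more) and that of 1.5 for M1BP after CP190 knockdown (0.5 with gene ends, 2.5 with equal lengths, and 0.5 to 3 in 3 of the fits without 1 library). A reach of 100 bp gave 2 of 6 bound genes losing M1BP after M1BP knockdown, 0 genes losing CP190, and 0 gaining Mod(mdg4). A reach of 500 bp, or a loss with no overlapping knockdown peak, both added after seeing the data, gave 0 genes losing CP190 after M1BP knockdown. Gene ends gave 1 CP190 gain (Rab10), 1 lost CP190 site, and 0 genes with Su(Hw) or Mod(mdg4) in both mock libraries. A -log10 q of 10 or more gave 2 CP190 losses, 2 CP190 gains, 0 Mod(mdg4) gains and 1 M1BP gain after CP190 knockdown. Equal list lengths gave 2 of 7 bound genes and 2 sites losing M1BP after M1BP knockdown, and 1 gene gaining it after CP190 knockdown. For CP190 after CP190 knockdown they left 3 bound genes, 0 lost genes, 0 lost sites and a difference of 1 gene per library in place of -18.5, and shortening the longer lists is part of how that setting is built. The difference of 0 for CP190 after M1BP knockdown became 1.5 with a reach of 100 or 500 bp or gene ends, 0.5 with -log10 q of 10 or more and -1 with equal lengths. For the other moved values the cause was not tested.

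Leaving out 1 library gave 1 to 2 CP190 losses, 0 to 3 CP190 gains and a CP190 difference of -1.5 to 1.5 after M1BP knockdown, 1 to 2 Mod(mdg4) gains, and after CP190 knockdown 0 to 2 M1BP gains and an M1BP difference of 0 to 3. The other results stayed within 1.5 times, with M1BP losses at 4 to 6 and CP190 losses after CP190 knockdown at 16 to 19.

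Libraries share only a replicate number. The replicate block left the differences at -5.5 for M1BP and 1.5 for Mod(mdg4) after M1BP knockdown, and at -18.5 for CP190 and 1.5 for M1BP after CP190 knockdown, each with an exact sign-flip p = 0.5, the smallest that 2 pairs allow. For CP190 and Su(Hw) after M1BP knockdown it left 0 (exact sign-flip p = 1). Replicate deviations of log2 fold at shared sites correlated at -0.0099 to 0.169 over the 6 comparisons, across sites, which are not replicates. Read depth is unknown, so a lost peak is not shown to be lost binding.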
